A study of Homo sapiens with 22 samples.

Results

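A set of 9 genes that encode transcription regulators of the erythroid lineage, KLF1, TAL1, NFE2, GFI1B, MYB, LMO2, ZFPM1, BCL11A and SOX6, were followed in K562 cells during treatment with PMA. The members were chosen by name, and the regions by position: every region of the 4 deposited count tables (H3K27ac, Jun, CTCF and Rad21) that overlapped a gene's RefSeq span (GRCh38.p14), extended by 50 kb on each side, was kept. This gave 601 of 409446 regions, of which 177 were H3K27ac regions, 182 Jun regions, 81 CTCF regions and 161 Rad21 regions. Each gene with its flanks is called a locus here, and regions of a locus were counted in the same libraries, so they are not replicates of one another.

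K562 is an established human leukaemia line with erythroid features, and PMA is a phorbol ester that activates protein kinase C and pushes these cells towards a megakaryocyte-like state. All 22 libraries came from cells labelled wild type and grown with 10% serum. Cells received 25 nM PMA for 0, 6 or 72 h, were fixed with 1% formaldehyde for 10 min, and were profiled by CUT&RUN, in which a nuclease tethered to an antibody releases the DNA bound by its target. Each of the 11 groups held 2 libraries. H3K27ac, CTCF and Jun were profiled at all 3 times and Rad21 without the 6 h time. The 0 h cells were the untreated controls. The labels do not say whether replicates came from separate cultures, so the p-values measure only the spread between these samples, which may be technical. K562 is a single line, and the results describe that line only.

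The members act in one network. TAL1 is a basic helix-loop-helix protein that binds DNA with an E protein, and LMO2 is the bridging subunit that joins it to LDB1 and GATA1. KLF1 is a zinc finger activator of globin and other red cell genes, ZFPM1 (also called FOG1) is the cofactor of GATA1, and NFE2 is the larger subunit of a heterodimer with small MAF proteins that acts in both red cells and megakaryocytes. MYB keeps progenitors dividing. GFI1B is a repressor needed in erythroid cells and megakaryocytes, and BCL11A and SOX6 together repress fetal globin genes. H3K27ac is a histone mark of active promoters and enhancers, Jun is a subunit of AP-1, CTCF is an insulator protein, and Rad21 is a subunit of cohesin, the ring that holds chromatin loops.

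Promoter sequences are shown for the 4 start sites that the results below turn on and that held GATAA or TGANTCA. The 250 bases before each start are printed 5′ to 3′ on the gene's strand, from RefSeq (GRCh38.p14), with GATAA (or its complement TTATC) and TGANTCA in capitals. The KLF1 start lies at the minus strand stretch chr19:12887202-12887451, the upstream TAL1 start at minus strand chr1:47232336-47232585, the downstream GFI1B start at plus strand chr9:132978444-132978693, and the most upstream SOX6 start at minus strand chr11:16738478-16738727.
KLF1: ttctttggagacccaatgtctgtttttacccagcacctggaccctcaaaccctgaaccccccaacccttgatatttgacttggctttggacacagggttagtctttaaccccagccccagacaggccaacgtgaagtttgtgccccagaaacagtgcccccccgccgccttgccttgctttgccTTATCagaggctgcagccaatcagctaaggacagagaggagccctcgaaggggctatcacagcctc
TAL1: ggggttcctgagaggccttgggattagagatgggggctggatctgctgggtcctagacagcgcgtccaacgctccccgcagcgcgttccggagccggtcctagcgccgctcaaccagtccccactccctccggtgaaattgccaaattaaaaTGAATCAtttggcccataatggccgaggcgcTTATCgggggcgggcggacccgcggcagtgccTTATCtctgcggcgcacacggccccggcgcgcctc
GFI1B: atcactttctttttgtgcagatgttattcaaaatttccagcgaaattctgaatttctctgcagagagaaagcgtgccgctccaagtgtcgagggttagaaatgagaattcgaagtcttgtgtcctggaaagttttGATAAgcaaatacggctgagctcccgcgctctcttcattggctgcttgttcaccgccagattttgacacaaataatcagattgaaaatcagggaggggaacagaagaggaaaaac
SOX6: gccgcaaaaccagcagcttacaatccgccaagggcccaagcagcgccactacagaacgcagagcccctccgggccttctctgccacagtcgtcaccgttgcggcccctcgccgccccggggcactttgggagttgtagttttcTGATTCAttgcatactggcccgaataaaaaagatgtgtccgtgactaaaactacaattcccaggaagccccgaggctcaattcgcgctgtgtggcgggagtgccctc
The GATAA motif, bound by GATA factors, began 66 bases before the start in KLF1, 67 and 35 bases before it in TAL1 and 115 bases before it in GFI1B. The pattern TGANTCA takes in the core of AP-1 sites, in which N is C or G. It began 98 bases before the start in TAL1 (TGAATCA) and 107 bases before it in SOX6 (TGATTCA), so neither match was that core. Among 35116 RefSeq windows of the same length (250 bases before to 50 after a start), searched on both strands, 22.7% held GATAA and 7.71% held TGANTCA. RefSeq windows matched 7 of the 9 members, with 17 windows in all, of which 5 held GATAA and 2 held TGANTCA. The E-box CANNTG was present in 10 of 17 windows (68.7% of all windows) and CCNCNCCC, the core of sites for KLF proteins, in 8 of 17 (56.2% of all windows). These matches describe letters only.

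Read totals over the regions of a table ran from 12634261 to 27266241 per library for H3K27ac, 4766421 to 18883962 for Jun, 2553677 to 6068421 for CTCF and 4398797 to 7285286 for Rad21. Regions held a median of 39 to 94, 13 to 75, 14 to 46 and 15 to 21 reads in the same order. For Jun it was 19 and 19 at 0 h, 13 and 16 at 6 h, then 66 and 75 at 72 h. Low counts thus made small changes harder to detect for CTCF, Rad21 and for Jun at 0 and 6 h. Values below are CPM, counts divided by the library size in units of 1e6 reads as scaled by edgeR's TMM method. Of 9 erythroid marker genes, 5 had an H3K27ac region in their span (HBG1, HBE1, HBA1 and HBA2 had none), and their summed H3K27ac was 655 and 659 CPM at 0 h, 254 and 281 at 6 h, then 199.7 and 219 at 72 h. Over 5 of 7 megakaryocyte markers (PF4 and THBS1 had no region) it was 237 and 236 CPM at 0 h and 479 and 510.3 at 72 h, with ITGB3 going from a mean of 145 to 407 and ITGA2B from 84.8 to 51.6. Over 4 of 5 monocyte or macrophage markers (CD14 had none) it was 108 and 113 CPM at 0 h and 221 and 232 at 72 h, with CSF1R going from a mean of 10.8 to 125 and SPI1 from 76.4 to 79.7. T cell markers ranged from 19.1 to 32.3 CPM, B cell markers from 9.29 to 23.6 and epithelial markers from 58.7 to 72.8 over all H3K27ac libraries. The part of these marker shifts in the results below was not tested, and fewer cells carrying a mark cannot be told apart from less mark per cell.

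Acetylation was lower after PMA at most regions of these loci. At 72 h against 0 h, 132 of the 176 H3K27ac regions tested were lower and 29 were higher (edgeR quasi-likelihood test, Benjamini-Hochberg adjusted p under 0.05 over all 94865 regions tested, the call used throughout), while 38.1% of all regions were called lower and 43.4% higher. The median log2 fold change was −1.13 over the 9 loci and 0.18 over all regions. At 6 h against 0 h, 119 regions were lower and 19 higher, beside 26.3% and 32.3% of all regions, with medians of −0.94 and 0.20. From 6 to 72 h 66 were lower and 49 higher, beside 30.8% and 33.1% of all regions, and the higher share of these calls was 42.6% with TMM and 52.6% with counts in common peaks. The level of the whole table depended on the scaling: the all-region median at 72 h was 0.18 with TMM, 0.42 when scaled by total counts and 0.79 by counts in common peaks. The gap between the 9 loci and all regions was −1.31 with each of these 3 scalings. A scaling shifts the fold changes of all regions nearly alike, so this gap could hardly differ between them.

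When the counts of all regions of a locus were summed, 8 loci were lower at 6 h and 7 at 72 h, and in both cases BCL11A alone was higher. Among all 46693 genes tested in this way, 49.2% were called lower at 6 h and 53.2% at 72 h, against 27.1% and 35.1% called higher, so a lower sum was common. The median log2 fold change of the 9 sums was −1.03 at 6 h and −0.996 at 72 h, and that of all genes was −0.20 and −0.30. From 6 to 72 h the sums moved apart: TAL1, GFI1B, MYB, ZFPM1 and BCL11A were higher and KLF1 and SOX6 lower, beside 36.2% and 37.6% of all genes. The MYB gain lost its call without the flanks (0.14) and with flanks of 100 kb (0.04), and the ZFPM1 gain (0.17, adjusted p = 0.043) lost it with total counts and when any of 5 single libraries was left out.

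**Figure D1:**
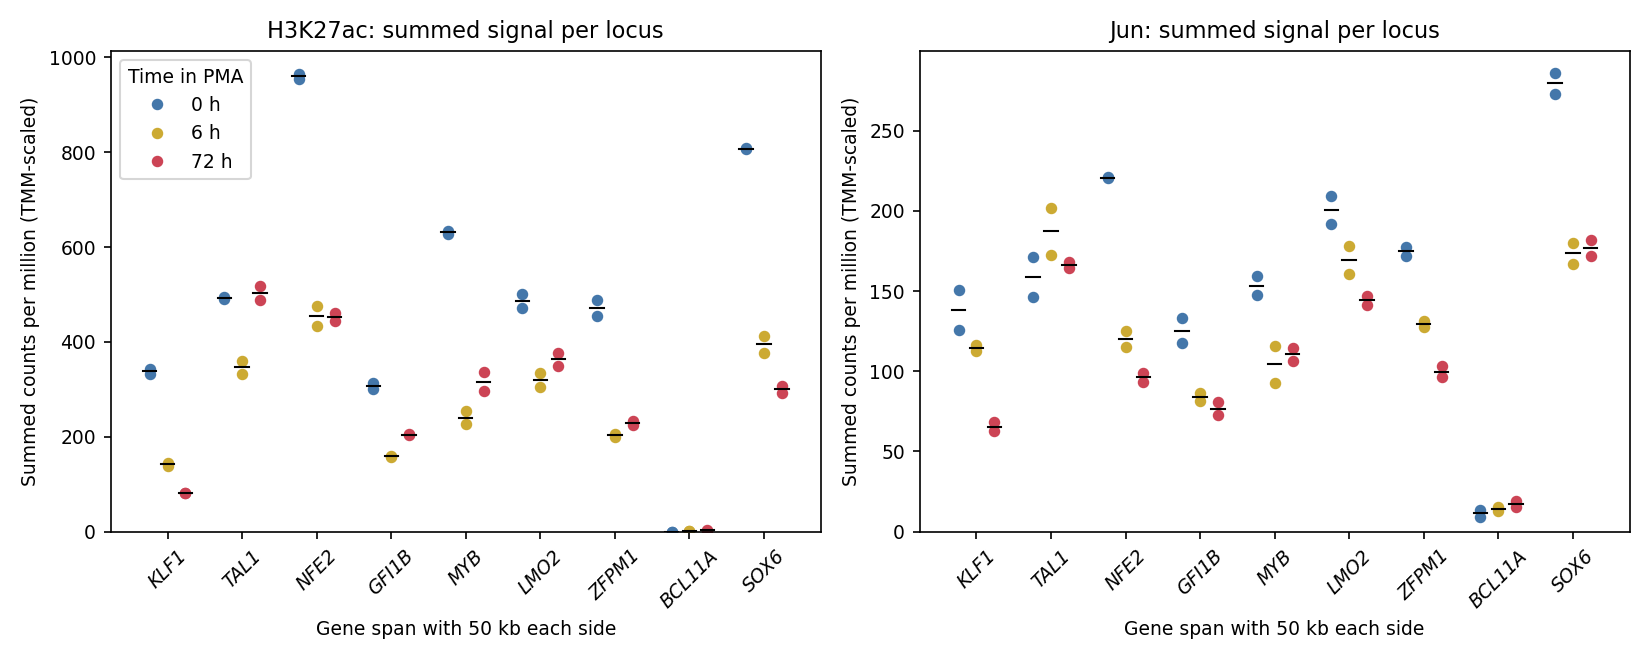
Summed H3K27ac (left) and Jun (right) counts of each locus in CPM, with 1 point per library coloured by hours of PMA and a bar at the mean of each pair. For KLF1, H3K27ac falls at both steps, from 333 and 343 to 82.1 and 82.0 CPM, while TAL1 returns at 72 h to its 0 h level and BCL11A lies far below the other loci.

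KLF1 had the largest fold loss of summed acetylation of the 9 loci at 72 h. Its summed H3K27ac was 333 and 343 CPM at 0 h, 139 and 146 at 6 h, then 82.1 and 82.0 at 72 h, with no overlap between the 3 times. The log2 fold change was −1.25 ± 0.06 (SE) at 6 h and −2.04 ± 0.06 at 72 h (edgeR adjusted p = 3.4e-14 and 9.7e-19). At 72 h the largest falls of the locus were at the gene's own start. The region over the printed promoter (chr19:12886398-12887606, reaching into the KLF1 span at chr19:12884422-12887201) had 68.9 and 68.7 CPM at 0 h, 11.8 and 13.4 at 6 h, then 1.92 and 2.44 at 72 h. This was a log2 fold change of −2.44 ± 0.12 at 6 h and −4.98 ± 0.14 at 72 h (adjusted p = 9.1e-15 and 8.5e-20). Another region just upstream (chr19:12887692-12888269) went from 27.6 and 29.1 CPM to 3.92 and 3.94 and then to 0.507 and 0.146, a log2 fold change of −6.41 ± 0.25 at 72 h (adjusted p = 8.1e-18). Both regions were close to empty by 72 h. The brightest region of the locus, 45.6 kb beyond the gene in the FARSA span (chr19:12932799-12934646), changed less, from 72.0 and 72.0 CPM to 34.2 and 35.8 at 6 h, then 33.0 and 33.5 at 72 h (log2 fold change −1.11 ± 0.10 at 72 h). Over the locus 16 of 18 regions were lower at 72 h and 1 was higher.

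The Jun sum of the KLF1 locus fell mostly after 6 h. It was 126 and 151 CPM at 0 h, 116 and 113 at 6 h, then 68.3 and 62.7 at 72 h. The log2 fold change was −1.08 ± 0.10 at 72 h (adjusted p = 2.0e-10) and −0.27 ± 0.10 at 6 h, a call that was lost with total counts (−0.07) and without the second 0 h library (−0.13). Single regions differed from the sum: at 6 h 5 of 17 Jun regions were lower and 3 higher, beside 12.2% and 13.1% of all Jun regions. At 72 h, 11 of 17 were lower and 2 higher. At chr19:12890712-12891302, 3.51 kb upstream of the gene, Jun went from 18.7 and 17.9 CPM to 4.42 and 4.67 at 72 h (−2.01 ± 0.23, adjusted p = 5.1e-07). There the log2 fold change was −1.47 at 6 h, also called lower. One region inside the FARSA span (chr19:12922409-12922788) moved in both directions. It had 4.81 and 7.60 CPM at 0 h, 17.9 and 9.49 at 6 h, then 1.43 and 1.27 at 72 h, so the 6 h libraries were the highest and the furthest apart. The rise at 6 h (1.12 ± 0.32, adjusted p = 0.012) was lost without the first 0 h library, without the first 6 h library and with DESeq2 (adjusted p = 0.13, 0.22 and 0.064). The fall at 72 h (−2.20 ± 0.35, adjusted p = 2.4e-05) kept its call. Rad21 at that same interval was 12.4 and 8.65 CPM at 0 h and 18.3 and 20.7 at 72 h, a log2 fold change of 0.87 ± 0.27 (adjusted p = 0.022) that was not called with total counts (0.71, adjusted p = 0.051), with DESeq2 or without any 1 of 3 libraries.

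TAL1, on chr1:47216290-47232335, was the locus where losses and gains balanced. Its summed H3K27ac was 491 and 495 CPM at 0 h, 332 and 361 at 6 h, then 488 and 518 at 72 h. The fall at 6 h was −0.51 ± 0.08 (adjusted p = 6.4e-06), the gain from 6 to 72 h was 0.54 ± 0.08 (adjusted p = 3.3e-06, not called within the span alone, 0.10), and the 72 h value differed from 0 h by 0.03 ± 0.08 (adjusted p = 0.74). With total counts and common peaks the 72 h value was called higher (0.26 and 0.63), and within the gene span alone the log2 fold change was −0.58. At 72 h 7 regions were higher and 8 lower of 18.

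The gains lay outside the gene and the losses included its start. The region over the downstream TAL1 start (chr1:47229105-47231906) had 163 and 168 CPM at 0 h, 85.6 and 102 at 6 h, then 97.5 and 105 at 72 h, a log2 fold change of −0.71 ± 0.11 at 72 h (adjusted p = 2.0e-06), which was −0.10 and not called with common peaks. The region with the largest gain lay 7.93 kb beyond the 3′ end (chr1:47207541-47208361) and had 1.70 and 1.42 CPM at 0 h, 17.4 and 16.6 at 6 h, then 20.2 and 21.2 at 72 h. Its log2 fold change was 3.44 ± 0.19 at 6 h and 3.73 ± 0.18 at 72 h (adjusted p = 4.4e-14 and 6.5e-16). The same interval gained the other proteins that were measured with a region there. Jun at chr1:47207552-47208362 was 3.50 and 5.16 CPM at 0 h, 33.6 and 44.2 at 6 h, then 25.1 and 22.2 at 72 h (3.17 ± 0.25 and 2.44 ± 0.24, adjusted p = 5.0e-08 and 9.9e-08), with a decline of 0.72 from 6 to 72 h (−0.72 ± 0.20, adjusted p = 0.0093) that was not called with total counts, with common peaks or without any 1 of 3 libraries (the second at 6 h and both at 72 h). Rad21 at chr1:47207715-47208269 was 1.42 and 1.69 CPM at 0 h and 10.4 and 12.8 at 72 h (2.90 ± 0.40, adjusted p = 2.5e-05). At this site acetylation and Jun had thus reached most of their gain by 6 h, and Rad21 was not measured at that time.

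The H3K27ac region 33.5 kb beyond the 3′ end (chr1:47179382-47182805) dipped and partly returned: 129 and 122 CPM at 0 h, 36.2 and 37.4 at 6 h, then 91.8 and 96.8 at 72 h. The fall at 6 h was −1.77 ± 0.11 (adjusted p = 4.0e-13) and the gain from 6 to 72 h 1.36 ± 0.11 (adjusted p = 5.1e-11), while the 72 h difference from 0 h, −0.41 ± 0.10, became 0.19 with common peaks. Jun over the upstream TAL1 start (chr1:47231945-47232810), the stretch that holds the printed GATAA and TGANTCA letters, was 24.6 and 25.1 CPM at 0 h, 17.9 and 16.2 at 6 h, then 12.0 and 10.7 at 72 h. This was a log2 fold change of −1.13 ± 0.19 at 72 h (adjusted p = 3.3e-05) and was not called with common peaks (−0.34). Rad21 30.2 kb upstream (chr1:47262562-47263249) was 14.8 and 20.1 CPM at 0 h and 7.14 and 8.86 at 72 h (−1.12 ± 0.28, adjusted p = 0.0065), a call lost without either 72 h library. CTCF there (chr1:47262606-47263264) had a log2 fold change of −0.78 ± 0.29, which was not called (adjusted p = 0.091).

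LMO2, on chr11:33858576-33892076, had the smallest called loss of summed H3K27ac at 72 h, from 472 and 501 CPM at 0 h to 306 and 335 at 6 h, then 349 and 377 at 72 h. The log2 fold change was −0.60 ± 0.08 at 6 h and −0.42 ± 0.08 at 72 h (adjusted p = 6.2e-07 and 4.3e-05), and the latter became 0.18 with common peaks. The regions of the locus went different ways. Inside the gene (chr11:33881378-33882539) H3K27ac was 21.6 and 23.0 CPM at 0 h, 11.3 and 12.3 at 6 h, then 2.21 and 1.46 at 72 h (−3.60 ± 0.18 at 72 h, adjusted p = 1.2e-15). At the brightest region, at the 5′ end of the span (chr11:33891461-33894916), it was 99.9 and 104 CPM at 0 h, 61.6 and 69.1 at 6 h, then 99.0 and 111 at 72 h. That region fell by 0.64 on the log2 scale at 6 h (−0.64 ± 0.11) and at 72 h stood 0.04 ± 0.11 from its start (adjusted p = 0.74). A region 6.56 kb upstream (chr11:33898632-33900301) rose from 13.9 and 13.5 CPM to 22.7 and 22.3 at 6 h, then 31.9 and 33.8 at 72 h (1.26 ± 0.12 at 72 h, adjusted p = 2.7e-10). Among the brighter Jun regions, that 20.2 kb upstream fell most (chr11:33912243-33913245), from 31.6 and 31.1 CPM to 13.4 and 13.3 at 72 h (−1.23 ± 0.20, adjusted p = 2.3e-05). The Jun sum of the locus, −0.47 ± 0.09 at 72 h with TMM, was 0.09 with total counts and 0.32 with common peaks.

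NFE2, on chr12:54292111-54301015, had the highest summed H3K27ac of the 9 loci at 0 h, and no region was called higher than at 0 h at either time (0 also at an unadjusted p under 0.05 and with DESeq2). The sum was 955 and 965 CPM at 0 h, 434 and 476 at 6 h, then 443 and 461 at 72 h. This was a log2 fold change of −1.08 ± 0.09 at 6 h and −1.09 ± 0.09 at 72 h (adjusted p = 1.4e-10 and 4.0e-11), and the difference between 72 and 6 h was −0.01 ± 0.09. Of 20 regions, 16 were lower at 6 h and 19 at 72 h. The largest fall was at a narrow region 5.38 kb upstream (chr12:54306393-54306621), from 13.5 and 15.3 CPM to 2.38 and 2.17 at 6 h, then 2.68 and 1.27 at 72 h (−2.86 ± 0.23 at 72 h, adjusted p = 2.1e-11). The brightest region overlapped the CBX5 and HNRNPA1 spans (chr12:54278205-54281768) and went from 203 and 189 CPM to 119.7 and 126 at 6 h, then 99.2 and 99.9 at 72 h (−0.98 ± 0.10, adjusted p = 4.7e-09). The sum of this locus therefore holds the signal of neighbouring genes.

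Jun at NFE2 was lower too, and its sum went from 220.2 and 221 CPM to 115 and 125 at 6 h, then 99.1 and 93.3 at 72 h. The log2 fold change was −0.88 ± 0.10 at 6 h and −1.20 ± 0.09 at 72 h (adjusted p = 5.1e-08 and 1.2e-11). Over the gene span without flanks it was −0.23 and −0.27 and was not called. The largest fall lay in the flank, at the CBX5 and HNRNPA1 region (chr12:54280014-54280902), with 64.5 and 60.1 CPM at 0 h, 24.5 and 26.3 at 6 h, then 16.9 and 14.4 at 72 h (−1.99 ± 0.18 at 72 h, adjusted p = 4.3e-08).

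GFI1B, on chr9:132945531-132993434, fell and partly recovered. Its summed H3K27ac was 302 and 314 CPM at 0 h, 157 and 159.9 at 6 h, then 204 and 205 at 72 h. The log2 fold change was −0.96 ± 0.07 at 6 h and −0.59 ± 0.07 at 72 h (adjusted p = 1.5e-11 and 1.7e-08), and the latter became 0.02 with common peaks. The narrow region at the downstream start (chr9:132978741-132978950), next to the printed GATAA, had 7.38 and 4.58 CPM at 0 h, 1.40 and 1.62 at 6 h, then 1.92 and 1.57 at 72 h (−1.77 ± 0.28 at 72 h, adjusted p = 2.4e-06). Jun over that start (chr9:132978469-132978825) was 5.98 and 5.88 CPM at 0 h, 2.72 and 1.09 at 6 h, then 1.81 and 2.04 at 72 h (−1.62 ± 0.35, adjusted p = 0.00051). Rad21 there (chr9:132978387-132978993) was 11.3 and 11.6 CPM at 0 h and 4.61 and 3.96 at 72 h (−1.41 ± 0.32, adjusted p = 0.0031, not called without the second 72 h library). Acetylation, Jun and cohesin were thus all lower at this start by 72 h. The region that overlaps the promoter window of the upstream start, short of the start itself (chr9:132943437-132945400), differed by −0.22 ± 0.13, which was not called. The 1 region that rose lay 7.42 kb upstream in the TSC1 span (chr9:132936915-132938108), from 5.39 and 5.59 CPM to 12.0 and 12.9 at 6 h, then 19.5 and 20.1 at 72 h (1.85 ± 0.15, adjusted p = 1.3e-11).

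MYB, on chr6:135181308-135219172, lost acetylation in the gene and gained it at a site upstream. Its sum was 628 and 634 CPM at 0 h, 227 and 254 at 6 h, then 296 and 337 at 72 h. The log2 fold change was −1.39 ± 0.09 at 6 h, the largest fall of the 9 loci at that time, and −0.996 ± 0.08 at 72 h (adjusted p = 1.6e-12 and 1.4e-10). At 72 h 14 of 17 regions were lower and 1 was higher. An intragenic region (chr6:135209589-135210090) went from 12.0 and 13.0 CPM to 4.27 and 4.82 at 6 h, then 1.66 and 1.82 at 72 h (−2.84 ± 0.20, adjusted p = 1.4e-12). The region that rose, 20.9 kb upstream (chr6:135158421-135160436), had 3.63 and 3.06 CPM at 0 h, 7.21 and 4.23 at 6 h, then 25.6 and 27.2 at 72 h (2.98 ± 0.19, adjusted p = 1.2e-13). Jun in that region (chr6:135159494-135160217) rose by 1.26 ± 0.28 (log2) at 72 h (adjusted p = 0.00083). Beyond the 3′ end, 42.5 kb away (chr6:135261719-135263234), H3K27ac dipped from 19.3 and 19.1 CPM to 3.78 and 5.12 at 6 h and was 15.3 and 16.6 at 72 h, which did not pass the test against 0 h (−0.26 ± 0.13, adjusted p = 0.071).

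Jun and Rad21 were lower together inside MYB. Jun at chr6:135191399-135192731 was 29.2 and 35.5 CPM at 0 h, 10.7 and 14.4 at 6 h, then 13.3 and 11.8 at 72 h (−1.37 ± 0.19 at 72 h, adjusted p = 5.6e-06). Rad21 over the same interval (chr6:135191197-135192616) was 40.1 and 34.8 CPM at 0 h and 20.1 and 14.5 at 72 h (−1.11 ± 0.25, adjusted p = 0.0026), a call lost without the second 72 h library. The Rad21 sum of the locus went from 178 and 158 CPM to 93.8 and 87.9 (−0.89 ± 0.13, adjusted p = 8.0e-07), the largest Rad21 change of the 9 loci, also not called without that library (−0.77). None of the 4 tables had a region over the MYB promoter window.

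ZFPM1, on chr16:88451769-88537031, lost acetylation throughout the gene. The sum went from 455 and 487 CPM at 0 h to 206 and 200.01 at 6 h, then 224 and 234 at 72 h, with log2 fold changes of −1.21 ± 0.08 and −1.04 ± 0.08 (adjusted p = 1.9e-12 and 7.2e-12). All 20 tested regions inside the gene were lower at 72 h, and of the 7 outside it 5 were higher and 1 lower. At one site inside the gene (chr16:88467304-88467861) H3K27ac was 17.8 and 17.2 CPM at 0 h, 3.08 and 3.00 at 6 h, then 1.23 and 1.38 at 72 h (−3.74 ± 0.20, adjusted p = 3.9e-15). The region that overlaps the RefSeq promoter window (chr16:88451919-88453255) went from 41.8 and 43.6 CPM to 30.2 and 28.5 and then 21.0 and 21.0 (−1.03 ± 0.11 at 72 h, adjusted p = 2.5e-09). Jun at the same window (chr16:88451810-88453069) was 37.0 and 36.3 CPM at 0 h, 19.5 and 19.9 at 6 h, then 9.27 and 8.32 at 72 h (−2.06 ± 0.19, adjusted p = 3.0e-08).

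The largest H3K27ac gain of the 9 loci by log2 fold change, apart from BCL11A, lay 46.2 kb upstream of ZFPM1 in the ZNF469 span (chr16:88403916-88405574). Its libraries held 3 and 5 counts at 0 h (0.170 and 0.263 CPM), and 9.87 and 7.48 CPM at 6 h, then 19.1 and 20.2 CPM at 72 h. The fitted log2 fold change was 5.26 ± 0.32 at 6 h and 6.45 ± 0.28 at 72 h (adjusted p = 4.7e-13 and 1.1e-16), and with so few counts at 0 h its size is uncertain. Jun at the site (chr16:88404108-88404812) was 1.896 and 1.58 CPM at 0 h, 11.3 and 12.2 at 6 h, then 10.4 and 11.1 at 72 h (2.62 ± 0.29 at 72 h, adjusted p = 3.2e-07). Rad21 (chr16:88404139-88404606) was 1.42 and 0.844 CPM at 0 h and 9.38 and 7.16 at 72 h (2.82 ± 0.46, adjusted p = 0.00016). CTCF (chr16:88403999-88404501) was 2.80 and 4.69 CPM at 0 h, 8.42 and 8.54 at 6 h, then 11.8 and 11.9 at 72 h (1.69 ± 0.40, adjusted p = 0.022), which was not called with DESeq2 or without any 1 of the 0 h and 72 h libraries. All 4 targets were thus higher at this site at 72 h, and the 0 h and 72 h libraries of each did not overlap.

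**Figure D2:**
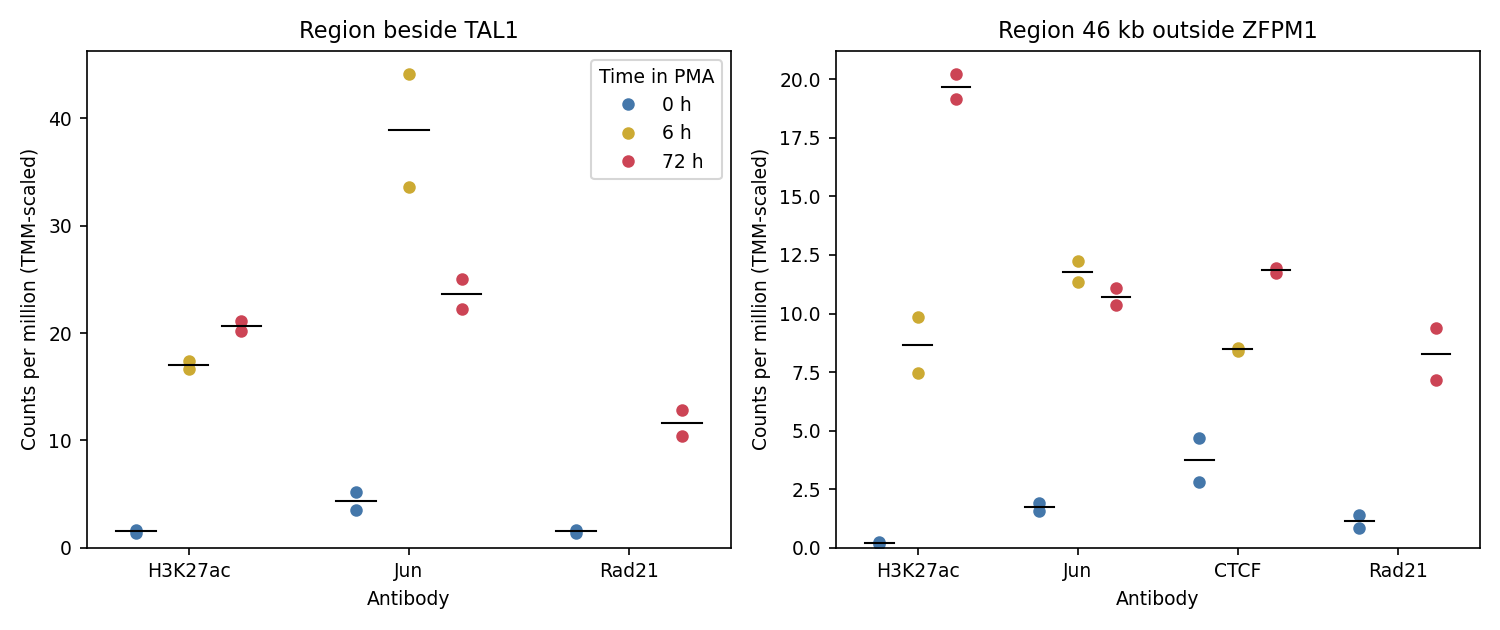
CPM at the rising sites beside TAL1 (left: H3K27ac, Jun and Rad21) and upstream of ZFPM1 (right: the same and CTCF), with 1 point per library coloured by hours of PMA and a bar at the mean of each pair. At the TAL1 site H3K27ac goes from 1.42 and 1.70 CPM at 0 h to 20.2 and 21.2 at 72 h and Jun is highest at 6 h.

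SOX6, the longest member at 772.0 kb (chr11:15966449-16738477), had 46 H3K27ac regions and changed in both directions. Its sum was 806 and 809 CPM at 0 h, 377 and 413 at 6 h, then 292 and 308 at 72 h (−1.03 ± 0.08 and −1.43 ± 0.08, adjusted p = 1.6e-10 and 1.6e-13). At 72 h 33 regions were lower and 10 higher. The largest fall was inside the gene (chr11:16279067-16281205), from 59.9 and 60.1 CPM to 12.8 and 13.8 at 6 h, then 2.32 and 2.91 at 72 h (−4.52 ± 0.14, adjusted p = 2.0e-19). Towards the 3′ end another intragenic region (chr11:16047216-16048910) rose, from 4.49 and 3.90 CPM at 0 h and 4.69 and 6.35 at 6 h to 20.9 and 21.5 at 72 h (2.34 ± 0.17, adjusted p = 1.8e-12). The region over the printed SOX6 start, which also overlaps C11orf58 (chr11:16737774-16739923), had 75.4 and 72.5 CPM at 0 h, 56.1 and 62.1 at 6 h, then 39.1 and 40.6 at 72 h. It fell by 0.89 at 72 h (−0.89 ± 0.10, adjusted p = 1.8e-08), and its 6 h change of −0.32 ± 0.10 was 0.01 with total counts and 0.03 with common peaks. Jun over that start (chr11:16738068-16738851), where the TGANTCA letters lie, was 15.8 and 14.9 CPM at 0 h, 8.17 and 7.30 at 6 h, then 5.94 and 3.69 at 72 h (−1.67 ± 0.24, adjusted p = 6.4e-06). A site 49.5 kb upstream (chr11:16787996-16788527) gained Jun, from 3.06 and 1.29 CPM at 0 h and 4.31 and 3.47 at 6 h to 8.23 and 9.68 at 72 h (2.04 ± 0.33, adjusted p = 2.8e-05).

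BCL11A, on chr2:60450520-60553924, was nearly free of acetylation. Its 2 H3K27ac regions held 0 counts in both 0 h libraries, 14 and 11 counts at 6 h, then 75 and 65 at 72 h (0.980 and 0.541, then 2.71 and 2.37 CPM). Against a floor of 3 counts per 0 h library, the sum was at least 4.63-fold higher at 6 h and at least 15.5-fold higher at 72 h (adjusted p = 0.00014 and 1.1e-07). The 1 region tested (chr2:60516269-60516784) was at least 10.5-fold higher at 72 h. Even at 72 h the sum was the lowest of the 9 loci. Jun at the enclosing interval (chr2:60515727-60516919) was 7.29 and 8.46 CPM at 0 h, 8.85 and 11.1 at 6 h, then 13.0 and 16.1 at 72 h (0.89 ± 0.22, adjusted p = 0.0020, not called without the second 72 h library). With this locus at its bound, the median log2 fold change at 72 h stayed at −0.996 over the 9 sums and at −1.13 over the tested regions.

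By position, 79 of the 95 tested H3K27ac regions inside the 9 gene spans were lower at 72 h and 10 higher. Outside the spans 53 of 81 were lower and 19 higher. Among all H3K27ac regions 38.1% were lower and 43.4% higher. In the 7 genes other than SOX6 and BCL11A, 46 of the 49 tested H3K27ac regions inside a gene span were lower at 72 h and 0 were higher (0 also at an unadjusted p under 0.05 and with DESeq2), while outside the spans 53 of 80 were lower and 18 higher. Both SOX6 and BCL11A had gains inside the span, 9 of 45 regions and 1 of 1. The split between inside and outside and the setting apart of SOX6 and BCL11A were made after the values were seen and were not tested.

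**Figure D3:**
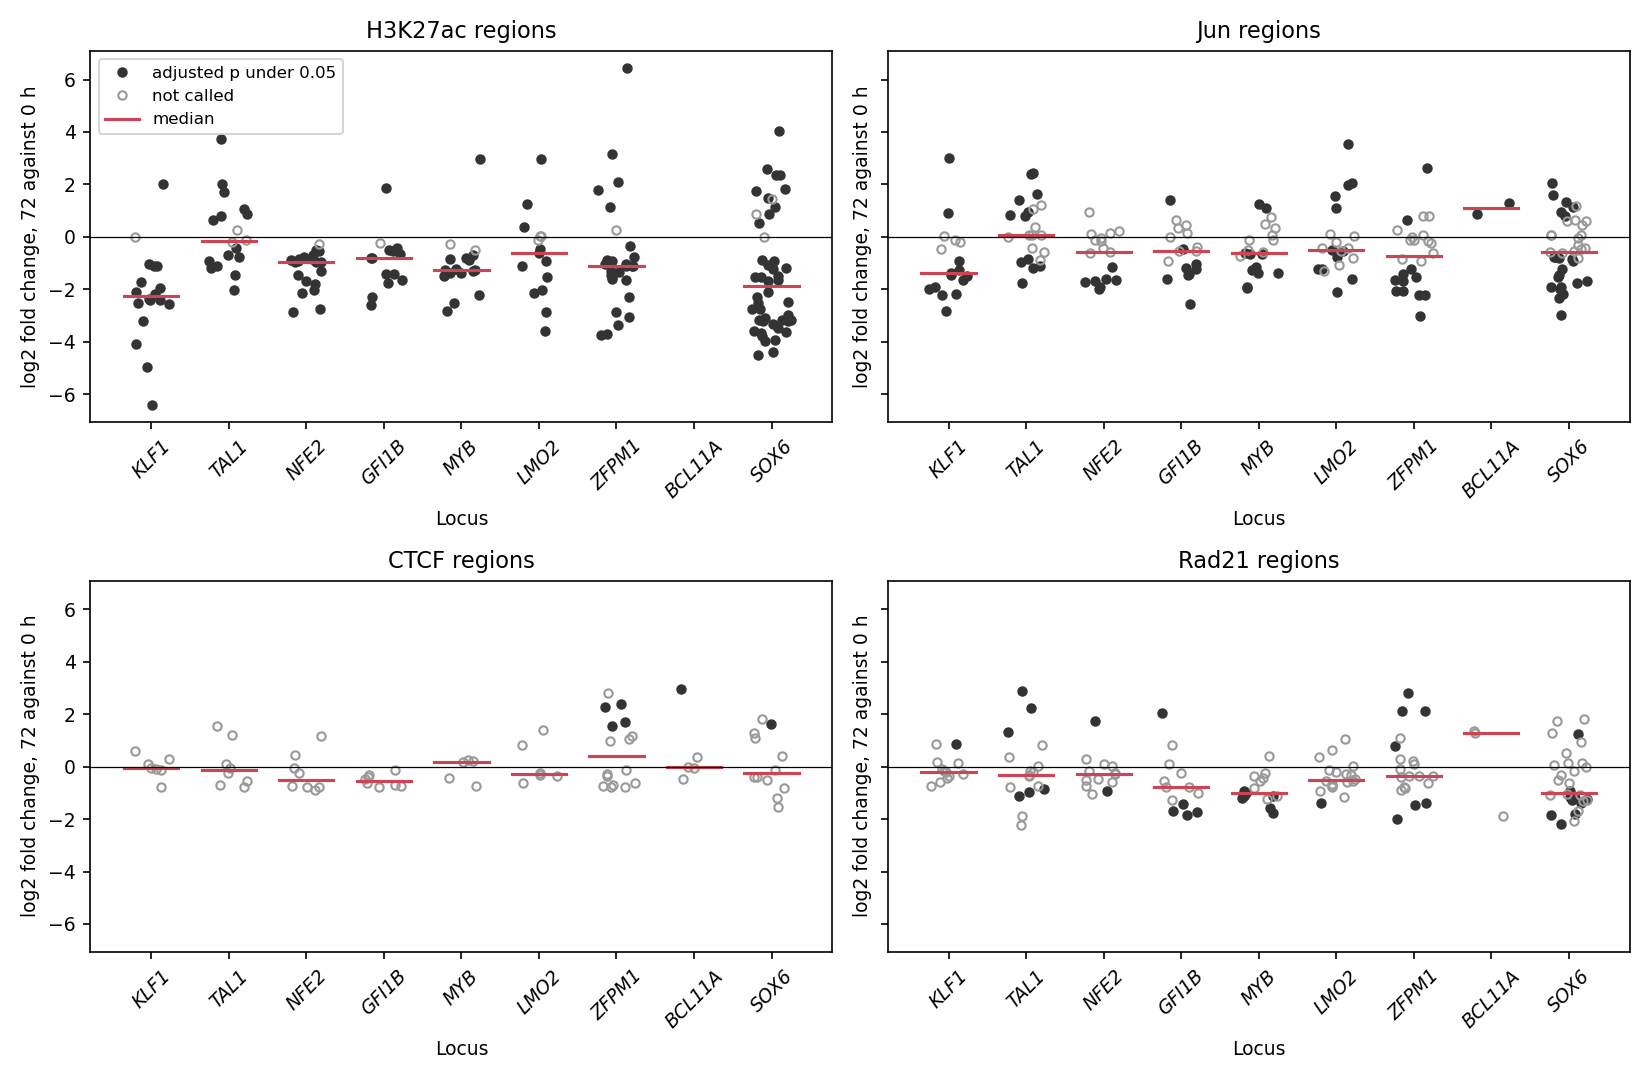
Log2 fold change of each tested region, 72 against 0 h, by locus and antibody, with 1 point per region, called regions filled and a red bar at the median. H3K27ac points of KLF1, NFE2, GFI1B and MYB lie mostly below 0 and those of TAL1 and SOX6 on both sides. The BCL11A H3K27ac region with 0 counts at 0 h is left out.

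**Figure D4:**
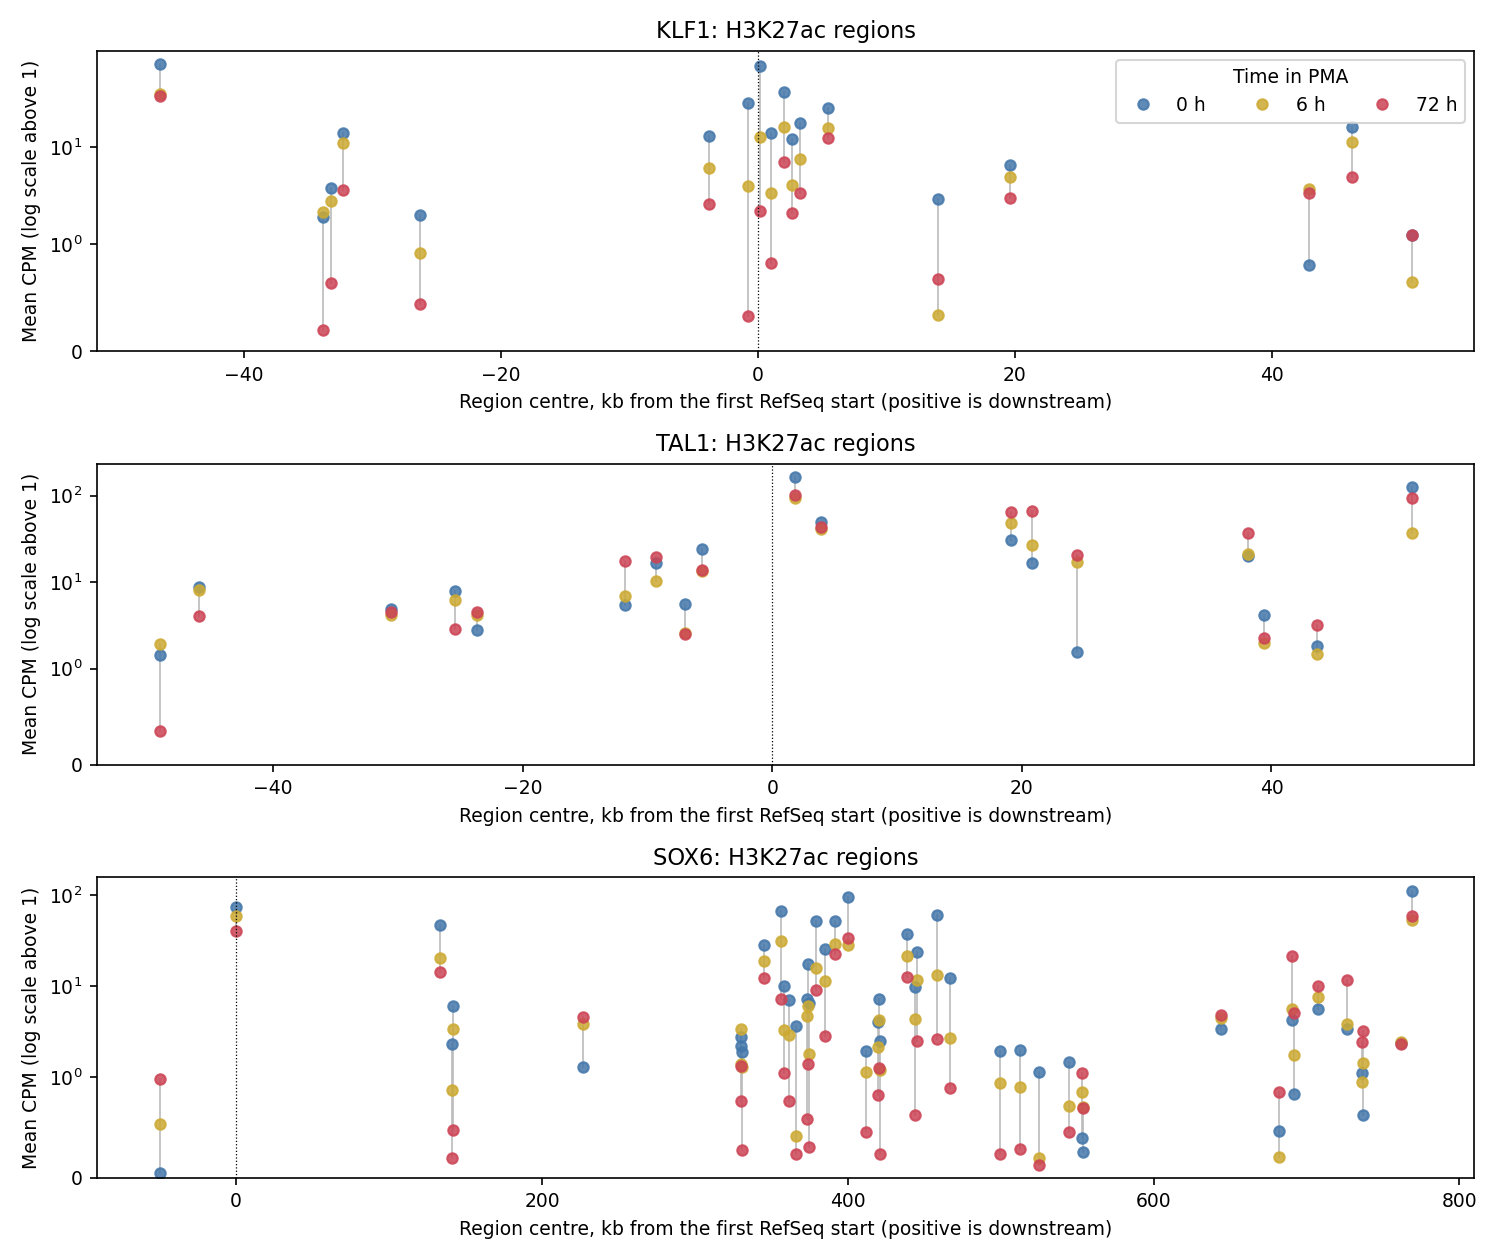
Mean H3K27ac CPM of each region of KLF1, TAL1 and SOX6 (2 libraries a time, log scale above 1) against the distance of its centre in kb from the first RefSeq start, with a grey line joining the times of a region. KLF1 falls from a mean of 68.8 CPM to 2.18 at its start, TAL1 gains lie on both sides of the gene, and most SOX6 regions in the middle of the gene are lower at 72 h while some near its 3′ end are higher.

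Called Jun regions were mostly lower, as H3K27ac regions were, with TMM. At 72 h 73 of 179 tested Jun regions were lower and 27 higher, beside 25.7% and 28.0% of all 132947 regions, with a median log2 fold change of −0.55 (0.17 over all regions). At 6 h 48 were lower and 19 higher, beside 12.2% and 13.1% of all regions (median −0.40, and 0.06 over all). Without the second 0 h Jun library the 6 h count was 42 in all. From 6 to 72 h 21 were lower and 11 higher (13.5% and 12.7% of all), and 7 or 5 were called without the first or second 72 h library. The Jun all-region median at 72 h was 0.73 with total counts and 0.96 with common peaks, where higher calls made up 48.0% and 60.0% of the calls at the loci against 27% with TMM. The gap between the loci and all regions was −0.72 with all 3 scalings, which a shift of all regions together leaves nearly unchanged. At 6 h the higher share was 28.4% with TMM and 39.3% with total counts, and from 6 to 72 h it was 34.4% with TMM and rose to 80.0% with total counts and 94.2% with common peaks, so the direction of that last step depended on the scaling.

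The summed Jun counts were lower at 72 h for 7 genes and higher for BCL11A, beside 48.2% and 28.3% of 50985 genes. The BCL11A call (0.59 ± 0.19, adjusted p = 0.0063) was lost with DESeq2 and without the second 0 h or the second 72 h library. At 6 h 7 genes were lower and 0 higher, beside 30.3% and 20.8% of genes (1 was higher at an unadjusted p under 0.05, and DESeq2 called 0). KLF1 and NFE2 kept their call at 72 h under all 3 scalings. The sums of MYB (−0.47), LMO2 (−0.47), GFI1B (−0.71) and SOX6 (−0.66) crossed to the other side of 0 with common peaks, and ZFPM1 (−0.81) became −0.02. From 6 to 72 h KLF1, NFE2, LMO2 and ZFPM1 were lower and 0 sums higher (0 also at an unadjusted p under 0.05 and with DESeq2), beside 38.1% and 20.1% of genes. With common peaks 8 sums were called in that step, all higher. Without the second 72 h library 1 sum was called. With TMM, TAL1 was not called at either time against 0 h (0.24 ± 0.11 at 6 h and 0.07 ± 0.10 at 72 h). With total counts, 4 of the 9 sums were called at 72 h, 2 higher and 2 lower.

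H3K27ac and Jun calls at overlapping regions were compared next. Of the 177 H3K27ac regions, 108 (61.0%) overlapped a Jun region by at least 1 bp, against 71.8% of all H3K27ac regions. At 72 h both were lower at 48 of these and both higher at 14, beside 23.9% and 30.5% of all pairs tested. H3K27ac was higher with Jun lower at 3, while the reverse occurred at 0, beside 3.20% and 0.130% of all pairs. Opposite calls were thus 3 of the 65 pairs called for both (4.62%), beside 5.77% over all overlapping regions. At 20 more H3K27ac was lower and Jun not called, beside 7.11% of all pairs. At 11 H3K27ac was higher and Jun not called, beside 17.9%. At 6 h both were lower at 35 and both higher at 7, beside 11.6% and 14.3% of all pairs. Of the 45 pairs called for both at 6 h, 3 went opposite ways (6.67%, beside 5.98% over all). The 9 H3K27ac regions of KLF1 that were lower and had a Jun region all had lower Jun, whereas at NFE2 Jun was lower at 6 of 12. Some Jun regions overlapped more than 1 H3K27ac region and are counted with each.

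**Figure D5:**
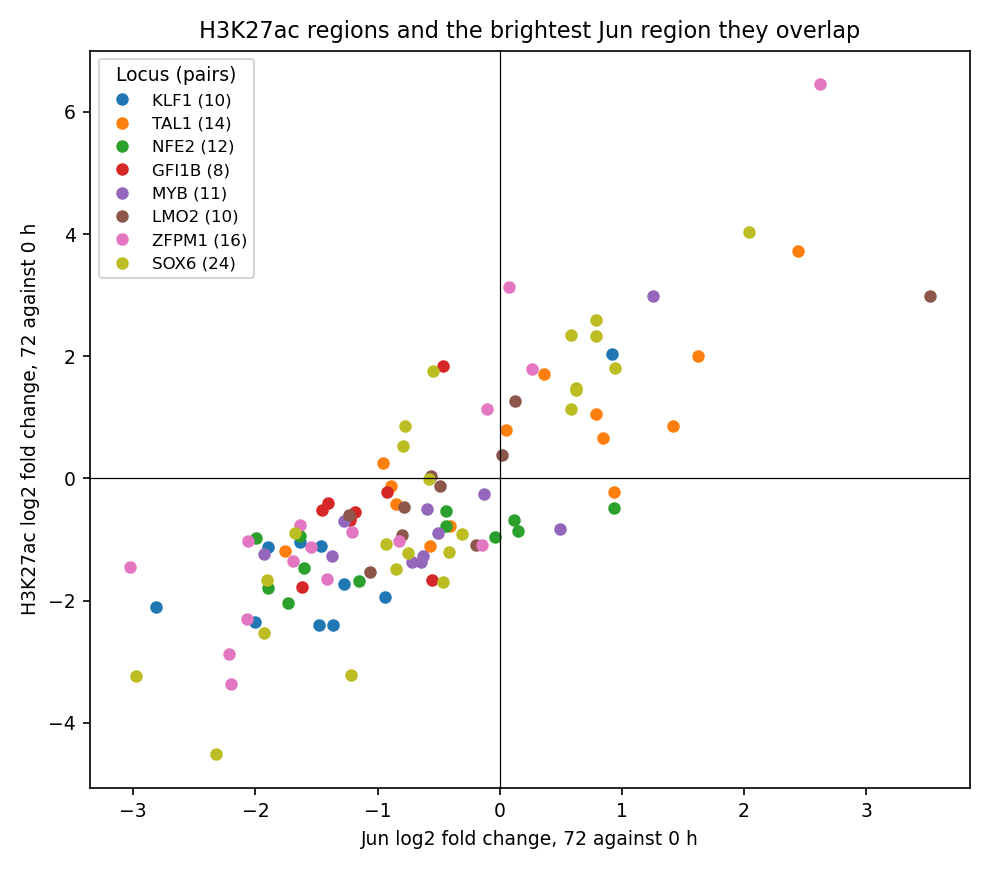
Log2 fold change of H3K27ac regions (vertical) against that of the brightest Jun region they overlap (horizontal), 72 against 0 h, for 105 pairs in which both were tested, with 101 Jun regions. In 70 pairs both values are below 0, in 23 both are above 0, and 12 lie on opposite sides. The BCL11A H3K27ac region with 0 counts at 0 h is left out.

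CTCF changed at few regions. At 72 h 6 of 75 tested CTCF regions were higher and 0 lower, beside 4.07% and 2.72% of all 58156 regions (15 were lower at an unadjusted p under 0.05, and DESeq2 called 0 lower). This count rested on single libraries: it was 0 without either 0 h library, 17 (9 higher and 8 lower) without either 6 h library and 1 without either 72 h library, and DESeq2 called 1. At 6 h 2 were higher and 1 lower (2.33% and 0.325% of all), and from 6 to 72 h 1 was higher and 1 lower (0.449% and 1.73%). The call with the smallest p was 49.8 kb upstream of SOX6 (chr11:16788228-16788800), overlapping the site that gained Jun. It had 10.2 and 10.8 CPM at 0 h, 12.6 and 10.98 at 6 h, then 31.6 and 32.9 at 72 h (1.62 ± 0.27, adjusted p = 0.0050). Of the other 5 calls 1 was at BCL11A and 4 were at ZFPM1, with 1 of these at the promoter window (chr16:88452176-88453065), with 5.61 and 2.17 CPM at 0 h, 15.2 and 12.2 at 6 h, then 9.91 and 13.8 at 72 h (1.55 ± 0.41, adjusted p = 0.035, not called with DESeq2). Acetylation and Jun at that ZFPM1 promoter were lower at 72 h.

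The brightest CTCF site of the 9 loci lay 23.4 kb upstream of NFE2 in the COPZ1 span (chr12:54324389-54325240), with 88.7 and 87.7 CPM at 0 h, 43.7 and 64.7 at 6 h, then 48.8 and 45.9 at 72 h. Its log2 fold change at 72 h, −0.90 ± 0.27, narrowly missed the threshold (adjusted p = 0.053). Summed CTCF was lower at 72 h for NFE2 (221 and 224 to 154 and 149.7 CPM, −0.55 ± 0.13, adjusted p = 0.0061) and GFI1B (141 and 163 to 103 and 108 CPM, −0.52 ± 0.14, adjusted p = 0.013), beside 16.8% of 50271 genes lower and 6.81% higher. Neither was called with total counts or within the gene span, where NFE2 was 0.01. At 6 h NFE2 alone was lower (−0.49 ± 0.14, adjusted p = 0.034, beside 1.93% of genes lower and 3.64% higher), a call lost under 9 alternatives. From 6 to 72 h 0 genes were called, beside 5.78% of all lower and 1.76% higher (3 were lower and 0 higher at an unadjusted p under 0.05, and DESeq2 called 0).

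With all libraries, more Rad21 regions were lower than higher. At 72 h 28 of 141 tested Rad21 regions were lower and 11 higher, beside 7.91% and 15.4% of all 83750 regions, and the median log2 fold change was −0.46 (−0.05 over all regions). This count rested on single libraries as well: without the first 0 h library the split turned to 12 higher and 9 lower with a median of −0.10, it was 3 higher and 6 lower without the first 72 h library and 7 of each without the second, and DESeq2 called 4 higher and 7 lower. With total counts the higher share of calls was 16.0%, against 28.2% with TMM. Lower regions were most frequent at MYB (7 of 15), followed by GFI1B (4 of 13) and SOX6 (9 of 30), and LMO2 had 1 of 18. Inside SOX6 (chr11:16337691-16338861) Rad21 was 24.2 and 20.7 CPM at 0 h and 10.9 and 7.92 at 72 h (−1.25 ± 0.27, adjusted p = 0.0018, not called without the second 72 h library).

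Summed Rad21 was lower for MYB, GFI1B, SOX6 and LMO2, beside 15.2% of 51038 genes, and higher for 0, beside 15.3% (0 at an unadjusted p under 0.05, and DESeq2 called 0 higher and 3 lower). GFI1B went from 115 and 89.1 CPM to 64.9 and 64.3 (−0.67 ± 0.14, adjusted p = 0.00016), SOX6 from 188 and 203 to 132 and 133 (−0.56 ± 0.13, adjusted p = 0.00082) and LMO2 from 139 and 119 to 99.9 and 99.7 (−0.37 ± 0.13, adjusted p = 0.026). Without the first 0 h library 2 sums were called, without the first 72 h library 1, and without the second 0. KLF1 Rad21 differed by −0.05 ± 0.13, TAL1 by −0.12 ± 0.13 and ZFPM1 by 0.01 ± 0.13, none of which was called.

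CTCF and Rad21 regions overlapped at 59 of 81 CTCF regions (72.8%, against 60.0% of all). At 72 h both were higher at 2, both at ZFPM1. At 12 Rad21 was lower and CTCF was not called, beside 6.39% of all pairs tested. At 3 Rad21 was higher and CTCF not called, beside 12.0% of all pairs. No pair was called lower in both, beside 0.877% of all such pairs, and both were higher at 3.39% of all pairs.

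The authors called 116 and 123 H3K27ac peaks at these loci in the 0 h libraries, 62 and 90 at 6 h, then 115 and 115 at 72 h, while the whole libraries held 42125 and 42852, 36947 and 39680, and 65267 and 66147. For Jun it was 67 and 72, then 31 and 58, then 126 and 127, with 31637 and 35072, 23946 and 35376, and 92329 and 99102 in the libraries. Rad21 peaks fell in number from 84 and 93 to 50 and 37, with 34680 and 59005 in the 0 h libraries and 33048 and 25687 at 72 h. CTCF peaks numbered 49 and 42 at 0 h, 29 and 36 at 6 h, then 39 and 62 at 72 h, with 33632 and 28029, 18043 and 26792, then 27158 and 40805 in the libraries. Peaks were called in each library separately, so the counts also move with its depth and signal.

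Among the partners of the members most were lower as well. Of 15 genes for partner or related proteins, all tested by summed H3K27ac, 12 were lower and 2 higher at 72 h, beside 53.2% and 35.1% of all genes (median −0.71, against −0.30 over all genes), and 13 were lower and 2 higher at 6 h, beside 49.2% and 27.1%. GATA1, the central factor of the network, had a mean of 448 CPM at 0 h, 211 at 6 h and 269.8 at 72 h (−0.73 ± 0.08 at 72 h, adjusted p = 1.8e-08). IKZF1 fell from 803 to 391 and 175 CPM (−2.19 ± 0.09). LDB1, the partner of LMO2, fell by 1.12 (−1.12 ± 0.06), and the E protein gene TCF3 by 1.34 (−1.34 ± 0.06). Among the NFE2 partners and relatives, MAFG (−1.16 ± 0.08) and BACH1 (−1.26 ± 0.07) fell and MAFK rose (0.37 ± 0.07). KDM1A, a histone demethylase that GFI1B recruits, rose (0.54 ± 0.07). Jun sums of the same 15 genes were lower for 13 and higher for 0 at 72 h, beside 48.2% and 28.3% of all genes (1 was higher at an unadjusted p under 0.05, and DESeq2 called 0), CTCF sums were lower for 2 (16.8% of all genes) and Rad21 sums higher for 2 and lower for 3 (15.3% and 15.2% of all genes), shares near those of all genes.

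Of 8 megakaryocyte factor genes 2 were higher and 3 lower in summed H3K27ac at 72 h, beside 35.1% and 53.2% of all genes. ETS1 went from a mean of 23.3 CPM at 0 h to 52.8 at 6 h and 442 at 72 h (4.25 ± 0.07, adjusted p = 1.2e-22). FLI1 went from 0.274 to 1.42 and 8.88 CPM (4.99 ± 0.42), and with so little signal at 0 h the size of this change is uncertain. MEF2C (−0.96 ± 0.09), MEIS1 (−0.39 ± 0.06) and SRF fell. RUNX1, ETV6 and MRTFA were not called. Fold changes of this list and of the partner list are given with TMM only. The all-region H3K27ac median at 72 h was 0.18 with TMM and 0.79 with common peaks, so the sign of small changes may depend on the scaling.

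Over the 6 H3K27ac libraries, the genes whose summed log2 CPM followed a member most closely, by Pearson r among all genes that share no region with it, were ARHGAP42 for KLF1, ASIC2 for TAL1, OPLAH for NFE2, PLCD1 for MYB, NPPA for LMO2 and DTNBP1 for SOX6. With only 3 times, many genes reach such values, and the largest (KLF1) was 0.9999.

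The 50 kb limit cut some loci beside strong regions. At KLF1 the last H3K27ac region inside lay 45.6 kb beyond the span (−1.11) and the first outside 50.4 kb (−1.13), while at NFE2 they lay at 35.7 kb (−1.46) and 50.1 kb (0.71).

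In the authors' deposited tables, the direction names given to H3K27ac and Jun regions did not follow the fold changes of the same table. Of 59 H3K27ac regions at the 9 loci named as rising in the authors' deposited table, 48 had a log2 fold change below 0 at 72 h there. In the authors' deposited table the KLF1 promoter region was among them, with log2 fold changes of −2.50 at 6 h and −4.93 at 72 h. Of 11 Jun regions at these loci named as rising in the authors' deposited table, 9 were below 0 at 72 h there. The fold changes in the authors' deposited table had the same sign at 72 h as those given here for 176 of 176 H3K27ac regions, 169 of 179 Jun regions, 72 of 75 CTCF regions and 139 of 141 Rad21 regions. The names were not used.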

How the data were processed

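The 22 CUT&RUN libraries were used as deposited: 4 tables of read counts per region and 22 peak lists. The submitters' processing notes name Trim Galore 0.4.3, BWA 0.7.17, SAMtools 1.9, deepTools 3.0.1, MACS2 and bedtools 2.26 and the builds hg19 and hg38, without roles. Counts per region were made by the authors, and the peaks of each library carry a −log10 q-value, a p-value on the −log10 scale and a fold enrichment deposited by the authors' peak caller. The authors' tables also hold deposited log2 fold changes and direction names. Regions on chromosome 20 reach position 64331078, beyond the end of that chromosome in hg19, so GRCh38 was used. Coordinates are 1-based.

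From the deposited counts, edgeR 4.0.16 (R 4.3.3, limma 3.58.1) was run on every region of a table, with filterByExpr by group, TMM scaling, 1 coefficient per time, the quasi-likelihood test and Benjamini-Hochberg adjustment over all regions tested. The SE is the log2 fold change divided by the square root of F. Counts were also summed over regions overlapping each RefSeq gene extended by 50 kb and tested over all genes with the same library sizes. Neighbouring genes share regions. Comparisons of 6 and 72 h share the 0 h libraries. Overlap meant at least 1 bp, and a count of 0 was set to a floor of 3 counts per library, which covers counting error only. No columns of per-sample values were left unused. Replicates differed by more than sampling noise in every group. The scripts were tested on simulated data.

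The members and lists were chosen with earlier results of these data known. Regions named for each gene and antibody were the one over the promoter window, the one with the highest mean CPM, and those with the largest called rise and fall among regions at or above the median CPM whose libraries did not overlap. Named outside this rule, after their values were seen, were the counts by position and the BCL11A region. Alternatives were total counts and common peak scaling, DESeq2 1.42.0, no filter, a mean count of at least 50, the replicate block, only the 2 times compared, no flank, a flank of 100 kb, only peaks whose −log10 q was 10 or more, and leaving out each library.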

Additional observations from a re-analysis of the deposited data

Results flagged for a closer look

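The Jun region in the FARSA span 35.2 kb upstream of KLF1 had effects of opposite direction at the 2 times, 1.12 at 6 h and −2.20 at 72 h (log2, both against 0 h), and the direct test of 72 against 6 h gave −3.32 ± 0.33 (edgeR adjusted p = 7.9e-07). Its libraries held 4.81 and 7.60 CPM at 0 h, 17.9 and 9.49 at 6 h, then 1.43 and 1.27 at 72 h. The direct test kept its call under every alternative in which the region was tested (it has no value with a mean count of at least 50), while the 6 h rise lost its call without the first 0 h library (0.83), without the first 6 h library (0.61) and with DESeq2 (1.07).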

How the results depend on the processing

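Of 1143 alternative values for the 90 gene sums, 1003 kept their direction and side of the threshold, 77 lost their call, 49 gained one and 14 called values changed sign. Of 2153 values for the 174 named regions, 1973 kept both, 121 lost their call, 50 gained one and 9 called values changed sign. Another 98 and 26 values changed sign that had not been called. The cause of these changes was not tested.

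Most sign changes came with another scaling. With total counts and with common peaks, the 6 h change of H3K27ac over the SOX6 start became 0.013 and 0.030. The 72 h changes of Jun at GFI1B (chr9:132937278-132938053) became 0.094 and 0.32, and those at LMO2 (chr11:33936556-33937829) 0.076 and 0.30. Jun sums at 72 h became 0.089 and 0.32 for MYB and 0.087 and 0.32 for LMO2, and from 6 to 72 h 0.045 and 0.31 for NFE2 and 0.13 and 0.39 for LMO2. With common peaks alone, H3K27ac at 72 h became 0.19 at the TAL1 region 33.5 kb beyond the 3′ end, 0.090 at chr9:133029524-133031746 beside GFI1B, 0.00064 at chr11:33911876-33913264 beside LMO2, 0.015 for the GFI1B sum and 0.18 for the LMO2 sum. Jun sums became 0.079 for GFI1B and 0.13 for SOX6 at 72 h and 0.25 for ZFPM1 from 6 to 72 h. Without flanks the 72 h CTCF sum of NFE2 was 0.014.

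In the order 6 against 0 h, 72 against 0 h and 72 against 6 h, called regions without flanks numbered 79, 89 and 69 for H3K27ac and 28, 39 and 15 for Jun. They numbered 18 for Rad21, 3 at 72 h and 0 from 6 to 72 h for CTCF, and CTCF sums 0 at 6 h and 0 at 72 h. With 100 kb flanks, Jun from 6 to 72 h had 54, CTCF 12 at 72 h and 5 from 6 to 72 h, and CTCF sums 0 at 6 h and 4 at 72 h. With total counts, 4 Jun sums were called at 72 h, 5, 10 and 7 CTCF regions, and 0 CTCF sums at 6 and at 72 h, and the higher share of CTCF calls went from 66.7% to 40.0% at 6 h. With common peaks, Jun from 6 to 72 h had 52 regions (49 higher) and 8 sums, and CTCF 1 region. DESeq2 called 13 Jun regions from 6 to 72 h, 1 CTCF region at 72 h and 1 from 6 to 72 h, and 11 Rad21 regions. With a mean count of at least 50, 61 Jun regions at 72 h, 1, 1 and 1 CTCF regions and 14 Rad21 regions were called. With only the 2 times compared, 17 CTCF regions (8 lower) and 4 CTCF sums were called at 72 h and 0 sums at 6 h. Among peaks whose −log10 q was 10 or more, the ratio of 72 to 0 h peak numbers was 1.03 for H3K27ac (0.962 with all peaks), 2.07 for Jun (1.82) and 0.379 for Rad21 (0.492).

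Leaving out 1 library gave 124 to 136, 155 to 164 and 96 to 114 H3K27ac regions and 9 to 9, 8 to 8 and 6 to 7 sums. Jun had 42 to 65, 71 to 113 and 5 to 32 regions and 5 to 7, 7 to 8 and 1 to 5 sums. CTCF had 0 to 4, 0 to 17 and 0 to 3 regions and 0 to 2, 0 to 4 and 0 to 0 sums. Rad21 had 9 to 44 regions and 0 to 5 sums.

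With the replicate number as a block, H3K27ac had 136, 162 and 117 regions, Jun 62, 99 and 32, CTCF 5, 11 (4 lower, 7 higher) and 2, and Rad21 44. Called sums with the block numbered 9, 8 and 8 for H3K27ac, 6, 8 and 3 for Jun, 1, 2 and 0 for CTCF and 5 for Rad21. Deviations of same-numbered libraries correlated by −0.01 to 0.09 for H3K27ac and −0.00 to 0.05 for Jun. For CTCF it was 0.08 to 0.12 and for Rad21 0.06. With pairs of libraries at each time, such values cannot show whether same-numbered samples shared a culture.

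Each group held only 2 libraries, and counts were low for CTCF and Rad21. In simulated counts with 200 regions changed 4-fold, the 72 against 0 h fits recovered 180 H3K27ac, 165 Jun, 142 CTCF and 119 Rad21 regions. Many more regions were called in the data than were changed in the simulation. These numbers therefore do not give the share of changes found in the data.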
